A study of Capra hircus with 4 samples.

Results

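The nuclear genes of the respiratory chain were followed in 4 RNA-seq libraries of goat longissimus dorsi muscle, the long muscle of the back. They were taken by name from the table in which the authors pair their assembled sequences, called unigenes, with goat genes. The rule took every name that starts with NDUF, UQCR, ATP5, SDHA, SDHB, SDHC or SDHD, every name that starts with COX and a digit from 4 to 8, and CYC1 and CYCS. It found 64 genes on 75 unigenes, of 11207 gene names on 21194 paired unigenes outside the mitochondrial genome. Of the 64 genes, 53 encode subunits: 35 of complex I, 4 of complex II, 1 of complex III and 13 of complex V. Another 8 encode assembly factors (NDUFAF1 to NDUFAF7 and SDHAF2), and 3 carry a subunit-like name only (ATP5S, ATP5SL and NDUFA4L2). No COX gene and neither CYC1 nor CYCS stands in the table under its own name. Their protein descriptions, with those of most UQCR genes, NDUFA3, NDUFS6, NDUFA4 and ATP5G3, stand there under locus names. These 26 genes were added from the descriptions after names and values had been seen. They are given apart from the 64 and are called locus-named subunits below.

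All animals were Cashmere Goats, aged 2 months by the labels. The treated goats received ractopamine, a β-adrenergic agonist used as a feed additive, by mouth at 1 mg/kg each morning in a scheme of 28 dosing days and 21 withdrawal days. There was 1 control library, and there were 3 treated libraries, which the series calls replicates. The study sequenced several times of dosing and withdrawal and the labels give none, so the libraries are called treated libraries 1, 2 and 3. The sources do not say whether a library came from 1 animal or from several. A difference from the control library therefore cannot be told apart from a difference between animals or times, and a permutation of 1 against 3 libraries could not give a one-sided p below 0.25.

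The respiratory chain of the inner mitochondrial membrane takes electrons from NADH at complex I and from succinate at complex II. They pass through complex III and cytochrome c to complex IV, which reduces oxygen, and complex V makes ATP from the proton gradient so formed. Skeletal muscle fibres depend on this chain for sustained work, and oxidative fibres hold more of it than glycolytic ones. Most subunits are encoded in the nucleus, and a few in the mitochondrial genome.

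The libraries held 6675218 to 8533046 expected counts, the authors' estimate of fragments per unigene. Outside the mitochondrial genome, the goat-paired unigenes held 6086312 counts in the control, against 3991046, 133802 and 2697657 in treated libraries 1, 2 and 3. These totals are the base of every share and of every value in CPM, counts for each 1000000 of the base, below. In treated library 2 a count of 3 was worth 22.4 CPM, against 0.493 CPM in the control library, and 12 of the 64 genes had 3 counts or fewer there, of which 5 had none. That library also stood apart in its makeup. A single unigene paired with TFCP2L1 held 15.3% of its base, against 0.119 to 0.431% elsewhere. The 3 adipocyte markers of 5 that the table names (ADIPOQ, PLIN1 and CIDEC) summed to 859 CPM there and to 14.8, 111 and 28.5 CPM in the control library and treated libraries 1 and 3. The 3 named fibroblast markers of 5 (COL1A1, DCN and LUM) summed to 2219.7 CPM there, against 114, 168 and 270.2 CPM. The 8 named skeletal muscle markers of 12 summed to between 95075 and 159262 CPM, of which CKM alone, muscle creatine kinase, held at least 36464 CPM in every library. The sum hides that the 8 did not move together. MB had 9677 CPM in the control, then 13353, 3288 and 15752 CPM in the treated ones, and MYH2 had 374, then 61.4, 209 and 300 CPM. MYL1 had 2888, then 9111, 4484 and 9867 CPM, and TNNT3 had 10520, then 28302, 21068 and 32959 CPM. ACTA1 was at 0 in treated library 2 and at 1.11 to 21.4 CPM elsewhere, while unigenes paired with ACTA2, another actin, held 24725 to 55399 CPM. The part of these differences in the results below was not tested. In whole tissue, fewer fibres and less RNA per fibre cannot be told apart.

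The 64 genes together held 1.35% of the base in the control (95% Wilson interval 1.34 to 1.36%). They held 1.12% (1.11 to 1.13%) in treated library 1, 1.11% (1.06 to 1.17%) in treated library 2 and 1.65% (1.64 to 1.67%) in treated library 3. The share was thus lower than in the control in treated libraries 1 and 2 and higher in treated library 3. The mean log2 ratio to the control was -0.08 ± 0.33 (SD, n = 3), which is smaller than the spread between the treated libraries. Intervals cover counting error only. Transcripts of the mitochondrial genome moved far more: for each count of the 64 genes there were 23.1 mitochondrial counts in the control against 66.8, 4164 and 74.4 in treated libraries 1, 2 and 3. When these are kept in the base, the ratio of the 64 genes to the control is 0.624, 0.0229 and 0.722, so the direction in treated library 3 depends on the base. That in treated library 1 depends on the scaling, with ratios of 1.10 with TMM and 1.03 with DESeq2 factors. In treated library 2 the log2 ratio was -0.28. It was -0.04 without the TFCP2L1 unigene in the base and 0.03 with the locus-named subunits added to the 64 genes. Values below leave the mitochondrial counts out of the base.

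The complexes did not move as a block. Complex I, the NADH dehydrogenase, was the only complex above the control share in all 3 treated libraries among those the name rule reached. Its 35 genes held 0.513% of the base in the control, then 0.523%, 0.565% and 0.733% in the treated ones. The ratios were 1.02 (exact 95% interval 1.00 to 1.04), 1.10 (1.02 to 1.18) and 1.43 (1.40 to 1.46), and they were above 1 also with TMM or DESeq2 scaling but not with mitochondrial counts in the base. Complex II, the succinate dehydrogenase, which is also an enzyme of the tricarboxylic acid cycle, stood below complexes I and V in every treated library. Its 4 genes went from 0.180% in the control to 0.101%, 0.0710% and 0.177%, or ratios of 0.560 (0.540 to 0.580), 0.395 (0.319 to 0.483) and 0.986 (0.953 to 1.02). In treated library 3 complex II was level with the control on this base and 1.30 times as high with TMM scaling. Complex V, the ATP synthase, went from 0.588% to 0.461%, 0.445% and 0.681%, with ratios of 0.784 (0.771 to 0.799), 0.758 (0.698 to 0.822) and 1.16 (1.14 to 1.18). With TMM scaling its ratio in treated library 1 was 1.03. Mean log2 ratios over the 3 treated libraries were 0.23 ± 0.26 for complex I, -0.73 ± 0.67 for complex II and -0.18 ± 0.34 for complex V (SD, n = 3).

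With the locus-named subunits added, complex III held 0.25% of the base in the control, then 0.225%, 0.211% and 0.335% in the treated ones over 9 genes. Its ratio in treated library 1 was 0.900 on this base, 1.19 with TMM and 1.11 with DESeq2 scaling. Complex IV, the cytochrome c oxidase, was the complex most above the control. Its 13 genes, all locus-named, held 0.272% in the control against 0.398%, 0.558% and 0.545% in treated libraries 1, 2 and 3, and the ratios were 1.47 (1.43 to 1.50), 2.05 (1.91 to 2.21) and 2.01 (1.96 to 2.05). These complex IV ratios stayed above 1 with TMM and DESeq2 scaling. With mitochondrial counts in the base they were 1.10, 0.0571 and 1.18. The complex IV sum leaves out unigenes whose best nucleotide match is COX8B or COX6C but which are paired with NLRP6 and RBP7. The COX8B unigene held 2956 counts in the control, then 3982, 435 and 3453 in the treated ones. The COX6C unigene held 890, then 1385, 26 and 1128. The 13 genes held 16540, then 15898, 747 and 14708. Of these counts, COX6A2 alone held 1432, then 1896, 261 and 1466, so the sum of treated library 2 rests in large part on this gene. Its ratio to the control there was 8.29 (7.24 to 9.47). Gene by gene, 10, 9 and 13 of the 13 genes lay above the control in treated libraries 1, 2 and 3, and the others lay below it. The median log2 x-folds of the 13 genes were 0.72, 1.21 and 1.20. The order of the complexes in treated library 1 was complex IV, I, III, V and II, and the same order held in treated libraries 2 and 3. Each ratio is 1 library against 1 library and has no replicate check on the control side.

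**Figure D1:**
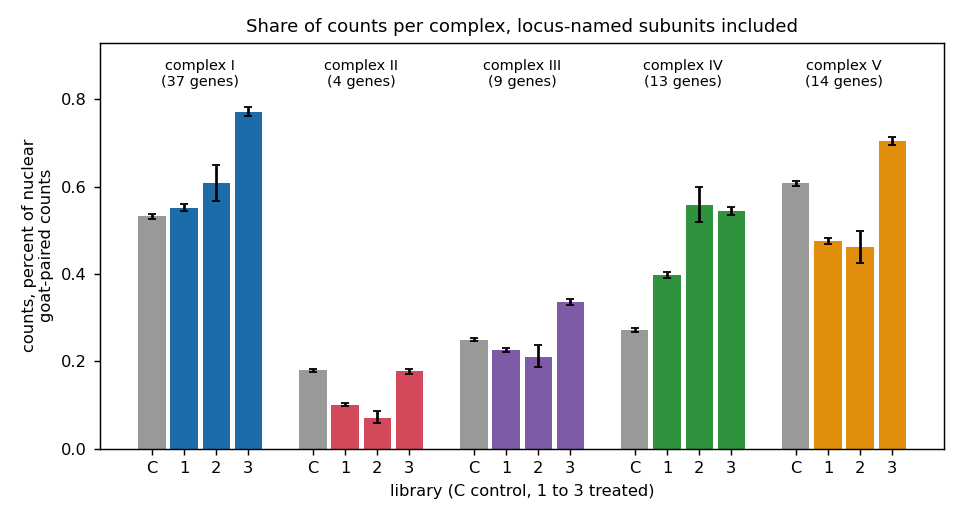
Share of the nuclear goat-paired counts held by each complex (y axis, percent) in the control (grey, C) and in treated libraries 1 to 3 (coloured), with 95% Wilson intervals as error bars and locus-named subunits included. Complex IV, without the unigenes that match COX8B and COX6C, is above the control in every treated library (0.272% against 0.398 to 0.558%). Complex II is below the control in treated libraries 1 and 2 (0.180% against 0.101 and 0.0710%).

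Members were next set against all goat genes, using the x-fold, which is the CPM of a treated library plus 1 over the CPM of the control plus 1. All 64 genes passed the minimum mean of 5 CPM, as did 6764 goat genes in all. The median log2 x-fold of the 64 genes was -0.06, -0.23 and 0.49 in treated libraries 1, 2 and 3, beside -0.31, -0.39 and -0.39 over all goat genes. With TMM factors the medians of all goat genes moved to 0.06, -0.32 and -0.01, and those of the 64 genes to 0.33, -0.16 and 0.88. The distance between the 64 genes and all goat genes was 0.26, 0.16 and 0.88 on the main base and 0.27, 0.16 and 0.90 with TMM factors. On the study's limits, an x-fold above 3 or below 0.6, treated library 1 had 3 members above (ATP5J2, ATP5E and NDUFS5) and 13 below. Of all goat genes, 4.15% lay above and 32.1% below. Treated library 2 had 3 members above (NDUFS5, NDUFS8 and NDUFA4L2, the last on 2 counts) and 21 below, beside 12.3% and 40.8% of all goat genes. In treated library 3 there were 3 above (NDUFAF2, ATP5J2 and NDUFA4L2) and 3 below (NDUFS1, ATP5SL and NDUFAF7), beside 1.55% and 32.9%. The split depends on the scaling: with TMM factors the numbers above and below were 6 and 7 for treated library 1, 4 and 17 for the next and 6 and 1 for treated library 3. Of the 6736 goat genes that passed the minimum with TMM factors, these numbers were 490 and 1289, 853 and 2655, and 253 and 1193. With mitochondrial counts in the base 60 members passed the minimum, none was above and 18, 60 and 14 were below, beside 49.2%, 99.4% and 70.2% of all goat genes below. No member was above 3 in all 3 treated libraries (0.547% of all goat genes were), and NDUFS1, ATP5SL and NDUFAF7 were below 0.6 in all 3, 3 members beside 14.7% of all goat genes. These calls depend on the scaling: with TMM factors none of the 3 was below 0.6 in all 3 libraries and NDUFS5 was above 3 in each, and with DESeq2 size factors NDUFAF7 stayed below and NDUFS5 was above. With TMM factors 510 of 6736 goat genes were below and 102 above in all 3 libraries. With DESeq2 size factors these were 593 and 84 of 6734. For NDUFAF7 the value of treated library 2 rests on a count of 0 at a depth that could not show a lower level. Without treated library 2, which had the fewest counts, 4 members passed in both others: ATP5J2 above the upper limit, and ATP5SL, NDUFAF7 and NDUFS1 below the lower limit, beside 22.0% of all goat genes past a limit in both. Without treated library 3 there were 12, beside 22.3%. All 3 treated libraries lay above the control for 21 of the 64 genes and below it for 15, beside 16.2% and 42.2% of all goat genes. Of the 35 complex I genes, 15 were above in all 3 and 5 below. Of the 4 complex II genes, none was above and 3 were below. Of 13 complex V genes, 5 were above and 2 below.

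The edgeR quasi-likelihood test of the 3 treated libraries against the control takes its spread from the treated libraries and assumes that the lone control library varies like them. At an adjusted p below 0.05 it called 0 of the 64 genes, beside 0.141% of 8494 goat genes higher and 0.306% lower. Of the 64 genes, 2 had an unadjusted p below 0.05 in edgeR (ATP5J2 and NDUFAF2), beside 11.2% of all goat genes. DESeq2 gave an adjusted p to only 55 of the 64 genes and called 0 of them, beside 3 higher and 1 lower of 3165 goat genes. It had 2 members at an unadjusted p below 0.05, beside 418 goat genes. Of the 26 locus-named subunits edgeR called 0 as well, and 5 had an unadjusted p below 0.05 (COX6A1, COX6A2, COX7C, COX8A and NDUFA3), with a lowest adjusted p of 0.30 (COX6A1). Thus no member and no locus-named subunit passed this test, which was run on single genes and not on the sums over complexes or lists. As the sources name no separate animals, its p-values measure only the spread between these samples.

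**Figure D2:**
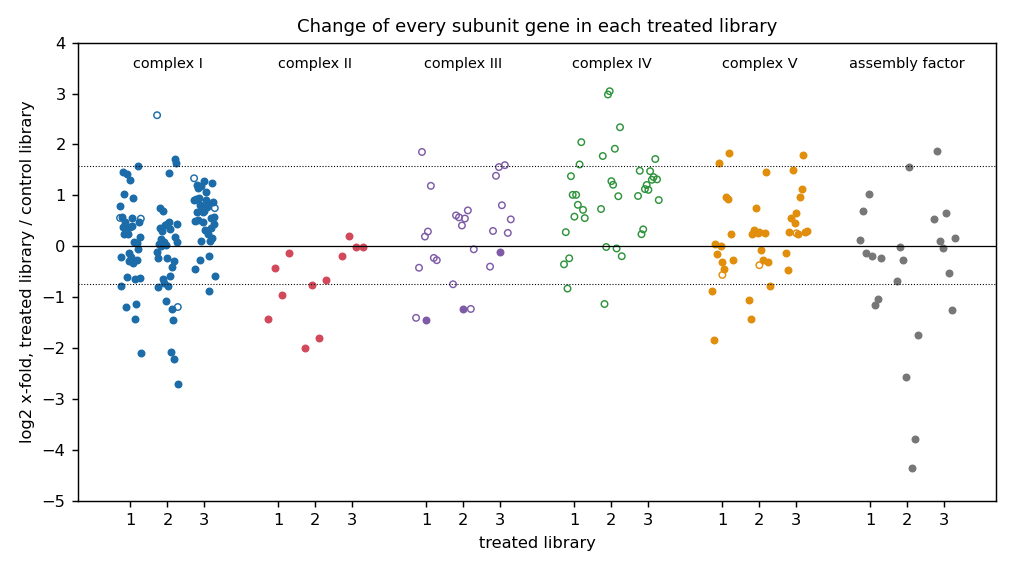
Log2 x-fold of the subunit genes, grouped by complex, and of the assembly factors (y axis) in treated libraries 1, 2 and 3 (x axis). Filled points are genes found by name, open points are locus-named subunits and dotted lines are the limits 3 and 0.6. ATP5S, ATP5SL, NDUFA4L2, CYCS and COX7A2L are not drawn. Complex IV points lie mostly above 0, with the highest at 3.05 in treated library 2, and the 4 complex II points lie at or below 0.20 in every library.

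Complex I is built from a peripheral arm, where the NADH and iron-sulphur centres sit, and a membrane arm that moves protons. Of its 7 nuclear core subunits, which are shared with bacteria, NDUFS1, the largest iron-sulphur subunit, was below 0.6 in every treated library. It had 1404 counts in the control against 338, 13 and 338 in treated libraries 1, 2 and 3, or 231 CPM against 84.7, 97.2 and 125 CPM. The x-folds were 0.370, 0.424 and 0.545, with adjusted p = 0.77 in edgeR. With TMM or DESeq2 scaling the x-fold in treated library 3 was 0.716 or 0.690, inside the limit. NDUFS8, a core subunit with iron-sulphur clusters, went the other way, with 195 CPM in the control, then 269.6, 605 and 355 CPM in the treated ones. The core set as a whole had ratios of 0.754, 1.03 and 1.22, and the other 28 complex I genes had 1.18, 1.14 and 1.55.

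Over the 35 complex I genes the log2 x-fold ran from -2.09 to 1.59, from -2.71 to 1.72 and from -0.88 to 1.28 for treated libraries 1, 2 and 3. Of the 35 genes, 20, 19 and 30 were above the control, beside 2492, 2686 and 2077 of 6764 goat genes. Among the accessory subunits, NDUFV3 and NDUFS5 marked the ends in treated library 1. NDUFV3, a small subunit of the NADH-binding part, had 631 counts in the control, then 94, 2 and 186 in the treated ones, with an x-fold of 0.235 for treated library 1 and 0.668 for treated library 3. The 2 counts of treated library 2 gave a ratio of 0.144 with an exact interval of 0.0174 to 0.523. NDUFS5, an accessory subunit of the membrane arm, had 117 CPM in the control and 354, 389 and 281 CPM, and its x-folds were 3.00, 3.29 and 2.38. All 3 treated libraries were above the control for this gene, also with TMM and DESeq2 scaling, and adjusted p was 0.47. NDUFA13, a subunit also linked to cell death, had the highest level per length of complex I in the control, with 375 CPM per kilobase of unigene, and reached 490.5, 484 and 604 in the treated libraries. NDUFB2 had the lowest, with 36.9, and 33.6, 17.4 and 51.5 CPM per kilobase in the treated libraries. Its unigene is 2575 bases long, and it had 579 counts in the control.

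Assembly factors help to build a complex and do not stay in it. Those found by name are NDUFAF1 to NDUFAF7 for complex I and SDHAF2 for complex II. Their levels per length were low, from 4.48 to 61.9 CPM per kilobase in the control, beside a median of 147 for complex I subunits. NDUFAF7, a methyltransferase, had 78 counts in the control, then 23, 0 and 13 in the treated ones. The x-fold was 0.490 for treated library 1 and 0.421 for treated library 3. Its 12.8 control CPM lie under what 3 counts are worth in treated library 2, so no fold is given there. NDUFAF2 was the member with the highest x-fold in treated library 3, 3.67, on 46 counts in the control, then 51, 1 and 82 in the treated ones. The exact interval of that ratio in treated library 3 was 2.77 to 5.90, and edgeR gave an adjusted p of 0.44. In treated library 2 the ratio was 0.989 on 1 count, with an interval of 0.0245 to 5.79.

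Complex II has no subunit from the mitochondrial genome, so its 4 genes are the whole enzyme. SDHA, the flavoprotein that oxidises succinate, had 813 CPM in the control against 299.7, 202 and 715 CPM in treated libraries 1, 2 and 3. SDHC, a membrane anchor that binds haem and quinone, had 264 CPM, against 135, 74.7 and 261 CPM. SDHB, the iron-sulphur subunit, had 521 CPM and then 388, 306 and 599 CPM, and SDHD, the other anchor, had 201 CPM and then 184, 127 and 198 CPM. All 4 genes were lower than in the control in treated libraries 1 and 2, whereas in treated library 3 their x-folds lay between 0.879 and 1.15. With TMM or DESeq2 scaling SDHD turned above the control in treated libraries 1 and 3, and SDHA and SDHC in treated library 3. Per length, SDHB was the highest of the complex in the control, at 419.6 CPM per kilobase, and SDHD the lowest, at 149. SDHA took 45.2% of the complex II counts in the control, then 29.8%, 28.4% and 40.3% in the treated ones. Of its unigenes, 1 matches a bacterium best and held 2 of the 27 counts of treated library 2, so that leaving it out moved the ratio from 0.248 to 0.232.

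Of complex III the name rule reached UQCRC2 alone, a core subunit that faces the matrix. It had 406 CPM in the control and 148, 172 and 373 CPM, and the x-folds were 0.367, 0.425 and 0.919. UQCRC1, its partner and locus-named, had 577 CPM and then 217, 344 and 437 CPM. The catalytic subunits of the complex are cytochrome b of the mitochondrial genome, CYC1 and UQCRFS1. CYC1, cytochrome c1, had 452 CPM and then 374, 433 and 652 CPM, and UQCRFS1, the Rieske iron-sulphur protein, had 405 CPM and then 345, 172 and 486 CPM. The small subunits UQCRB and UQCR11 lay above the control in every treated library, UQCRB with 156 CPM against 566, 232 and 409 CPM, and UQCR11 with 77.6 CPM against 178, 127 and 236 CPM. CYCS, cytochrome c itself, had 351 CPM in the control, then 277, 179 and 335 CPM in the treated ones. Its x-folds of 0.792, 0.513 and 0.955 were below 1 in each, and TMM scaling turned treated libraries 1 and 3 above 1.

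Complex IV is the complex with tissue isoforms, in which muscle and heart use other copies of some subunits than most organs. The muscle forms led in every library. COX6A2, the heart and muscle form of subunit VIa, had 1432 counts against 35 for COX6A1, the liver form, which is 97.6% of the pair in the control (95% Wilson interval 96.7 to 98.3%). In the treated libraries the share was 96.6%, 97.4% and 97.5%, and each of these intervals overlapped that of the control. COX7A1, the muscle form of subunit VIIa, took 90.7% of its pair (88.9 to 92.3%), and then 91.7%, 85.2% and 91.4%. The value of treated library 2 rests on 52 and 9 counts, with an interval of 74.3 to 92.0%. COX4I1, the common form of subunit IV, took 99.4 to 99.8% of its pair with COX4I2, a form tied to low oxygen and lung. The COX7A1 unigene matches the goat protein of the table at 61% identity only. Both members of the VIa pair were above the control in every treated library: COX6A2 went from 235 CPM to 475, 1951 and 543 CPM, and COX6A1 from 5.75 CPM to 16.5, 52.3 and 13.7 CPM. The share of COX6A2 thus lay between 96.6 and 97.6% while the ratios of both genes to the control were 2.02 to 9.10. The ratio of 9.10 is that of COX6A1 in treated library 2, on 7 counts, with an exact interval of 3.41 to 20.8. COX8B, the muscle form of subunit VIII, was read from a unigene whose best nucleotide match bears that name but which the table pairs with NLRP6 at 49% identity. It had 486 CPM in the control, then 998, 3251 and 1280 CPM in the treated ones, and COX8A had 28.7 CPM and then 47.9, 149 and 73.0 CPM.

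**Figure D3:**
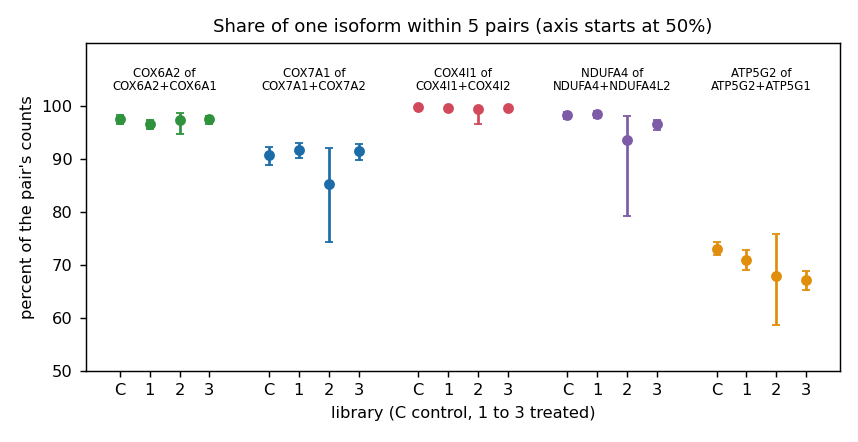
Share of the more abundant gene within 5 pairs of related subunits (y axis, percent of the pair's counts, axis from 50%) in the control (C) and treated libraries 1 to 3, with 95% Wilson intervals. COX6A2 holds 96.6 to 97.6% of its pair in all 4 libraries, and ATP5G2 goes from 73.1% in the control to 67.1% in treated library 3.

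Other complex IV subunits were spread. COX7C, a small subunit, had the highest x-fold of the complex in treated library 1, with 151 CPM in the control and 625, 299 and 497 CPM. COX5A, at the matrix side, was the subunit furthest below the control there, with 346 CPM and then 194, 157 and 408 CPM. COX4I1 had 724 CPM and then 566, 1203 and 1437 CPM. NDUFA4, once assigned to complex I and now known as a complex IV subunit, had 248 CPM and then 365, 217 and 467 CPM. Its relative NDUFA4L2, which is found by the name rule, is induced by low oxygen. NDUFA4L2 had 26 counts in the control, then 21, 2 and 44 in the treated ones, and NDUFA4 held 93.5 to 98.6% of their counts. In treated library 3 NDUFA4L2 had an x-fold of 3.28 with an exact interval of the ratio of 2.30 to 6.46.

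Complex V consists of the catalytic F1 head and a membrane part with a ring of c subunits. Relative to the control, the summed counts of the head stood lower than those of the other genes of the complex in every treated library. The 5 genes of F1 held 0.387% of the base in the control, then 0.227%, 0.238% and 0.378% in the treated ones, with ratios of 0.588, 0.616 and 0.978. The other 8 genes had ratios of 1.16, 1.03 and 1.50. ATP5B and ATP5A1 carry most of the head's counts, and gene by gene the difference was not seen in treated library 2: the median log2 x-fold was -0.16, 0.24 and 0.28 for the 5 genes and 0.12, 0.09 and 0.55 for the 8. ATP5B, the catalytic β subunit, had the most counts of the 64 genes in the control, with 1803 CPM in the control against 501, 673 and 1304 CPM in treated libraries 1, 2 and 3, all below the control, with x-folds 0.278, 0.373 and 0.723 and adjusted p = 0.81 in edgeR. ATP5B alone held 30.7% of complex V counts in the control, then 10.9%, 15.1% and 19.2% in the treated ones. ATP5A1, the α subunit, had 1172 CPM and then 633, 561 and 1063 CPM. Of 5 unigenes paired with ATP5A1, 3 match a bacterium best, and in treated library 2 they held 20 of its 75 counts, so that its ratio of 0.478 there became 0.354 (0.266 to 0.461) without them. With all 8 bacterial or rabbit unigenes of the 64 genes left out, the complex V ratio of treated library 2 went from 0.758 to 0.721, and those of treated libraries 1 and 3 were 0.784 and 1.16.

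Over the 13 complex V genes the log2 x-folds ran from -1.85 to 1.82, from -1.42 to 1.47 and from -0.47 to 1.79 in treated libraries 1, 2 and 3. ATP5E and ATP5J2 stood at the upper end. ATP5E, the ε subunit of the head, had 134 CPM in the control and 417, 224 and 381 CPM, and the x-folds were 3.11, 1.67 and 2.84. ATP5J2, subunit f of the membrane part, had 88.6 CPM and then 316, 247 and 309 CPM. Its x-folds were 3.54, 2.77 and 3.46, so it passed the upper limit in treated libraries 1 and 3 but not in treated library 2. Every treated library was above the control for both genes. For ATP5J2 edgeR gave an unadjusted p = 0.037 and an adjusted p = 0.40. Per summed unigene length, ATP5G2 was the most abundant of complex V in the control, with 869.6 CPM per kilobase, and ATP5L, subunit g, the least, with 159. ATP5B had 598 on that scale, in which a unigene of 1226 bases that matches a bacterium best and held 1 control count is included, and 1006 on its main unigene alone, which is above ATP5G2.

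The c ring is of interest since 3 genes make the same ring protein. Each precursor carries its own import signal, which is removed, and the mature peptide that is left is the same. The coding stretches of the mature peptide, read from the authors' coding sequences of the unigenes, are shown 5′ to 3′ to let the 3 genes be told apart, with the bases that differ from ATP5G1 in capitals.
ATP5G1: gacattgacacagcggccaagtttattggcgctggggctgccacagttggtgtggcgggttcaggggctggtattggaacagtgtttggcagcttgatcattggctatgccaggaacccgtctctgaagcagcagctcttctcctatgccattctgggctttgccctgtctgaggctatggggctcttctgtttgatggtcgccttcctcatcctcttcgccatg
ATP5G2: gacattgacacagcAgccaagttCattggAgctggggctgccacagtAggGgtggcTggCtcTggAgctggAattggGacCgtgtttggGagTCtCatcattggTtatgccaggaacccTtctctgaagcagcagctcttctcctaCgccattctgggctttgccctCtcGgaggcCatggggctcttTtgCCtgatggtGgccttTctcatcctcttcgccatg
ATP5G3 (locus-named): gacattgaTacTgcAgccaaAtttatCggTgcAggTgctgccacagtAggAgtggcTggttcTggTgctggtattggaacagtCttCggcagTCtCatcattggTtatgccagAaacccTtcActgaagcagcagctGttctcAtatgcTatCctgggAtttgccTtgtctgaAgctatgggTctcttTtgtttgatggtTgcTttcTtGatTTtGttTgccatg
Each stretch has 225 bases in 75 codons. ATP5G2 differs from ATP5G1 at 27 bases and ATP5G3 at 39, while ATP5G2 and ATP5G3 differ at 42, and after translation 0 residues differ. Reads from short identical runs could be split between the 3 genes by the authors' counting, so their separate levels are uncertain to that degree. ATP5G2 had 583 CPM in the control, then 425, 553 and 689 CPM in the treated ones, ATP5G1 had 215 CPM and then 174, 262 and 338 CPM, and ATP5G3 had 203 CPM and then 137, 157 and 243 CPM. The 3 genes kept that order in each of the 4 libraries, and ATP5G2 held 73.1% of the counts of ATP5G1 and ATP5G2 in the control (71.8 to 74.3%). The share was 71.0% (69.1 to 72.7%), 67.9% (58.6 to 75.9%) and 67.1% (65.3 to 68.8%) in the treated libraries, of which only that of treated library 3 has an interval clear of the control.

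Of the subunit-like names, ATP5SL, now known as DMAC2 and needed for the assembly of complex I, was below 0.6 in every treated library. It had 480 counts in the control, then 165, 0 and 111 in the treated ones, with an x-fold of 0.530 for treated library 1 and 0.528 for treated library 3. With TMM factors these were 0.695 and 0.691, inside the limit, and with DESeq2 size factors 0.654 and 0.666. In treated library 2 it was at least 3.52-fold lower, against a floor of 3 counts. ATP5S, also called factor B, had 115 counts and then 72, 0 and 30.

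**Figure D4:**
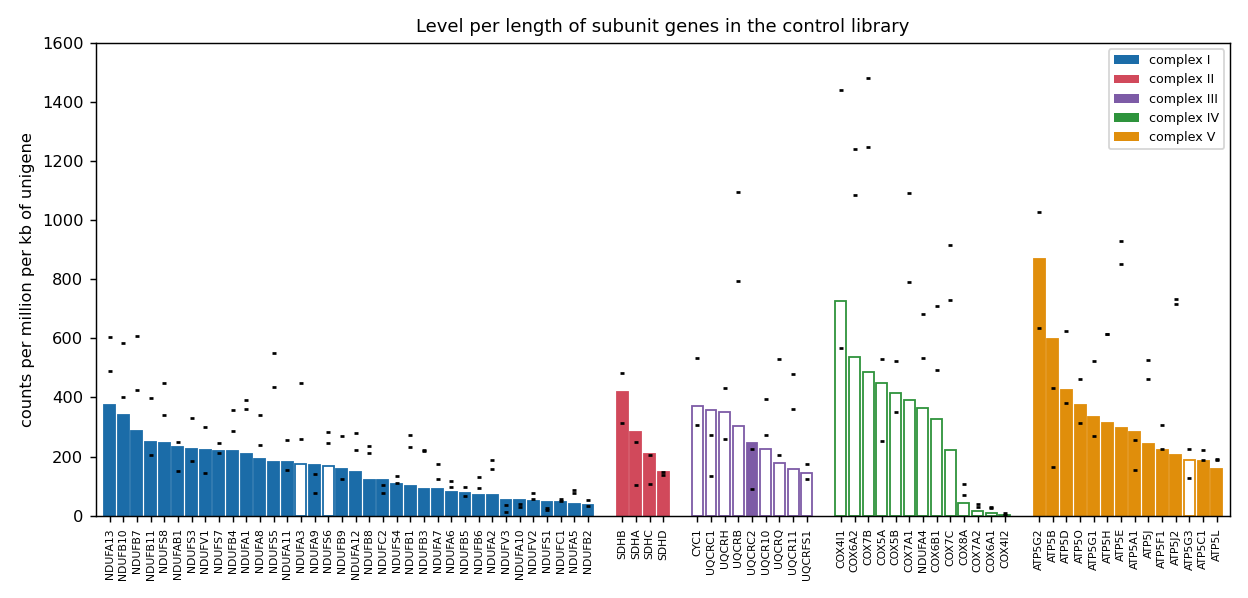
Level per length of the subunit genes in the control, without 1 of complex I (bars, CPM per kilobase of summed unigene length), ordered within complexes I to V, with open bars for locus-named subunits and short dashes for treated libraries 1 and 3. The median subunit stands at 147 in complex I and 298 in complex V, both over the genes found by name, and COX4I2, COX6A1 and COX7A2 lie at 15.9 or less.

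Per length, complex V genes stood above complex I genes in every library. The median of the 35 complex I genes was 147 CPM per kilobase in the control, then 151, 109 and 233 in the treated ones. That of the 13 complex V genes was 298 in the control, then 312, 268 and 523 in the treated ones. The complex V median was 2.03 times that of complex I in the control. Within complex I the genes ran from 36.9 to 375, and within complex V from 159 to 869.6. No order between neighbours can be tested with 1 control library.

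The members also differed by a property that the name rule did not use, the length of their unigene. Genes on short unigenes were mostly higher in the treated libraries and those on long unigenes mostly lower. Of the 64 genes, the 12 on unigenes of up to 600 bases had medians of the log2 x-fold at 0.86, 0.34 and 1.10 for treated libraries 1, 2 and 3. The 11 on unigenes of over 1500 and up to 2500 bases had -1.13, -2.00 and -0.47. The 4 on unigenes of over 2500 bases had -0.51, -1.07 and 0.17, above the class before in each library, so the fall did not go on to the longest unigenes. The genes named above follow this order: ATP5J2 (431 bases), ATP5E (448) and NDUFS5 (643) were high, and NDUFV3 (1925), ATP5B (1792), UQCRC2 (1648), SDHA (2441) and NDUFS1 (4838) were low. Exceptions among long unigenes were NDUFV2 (3617 bases), with log2 x-folds of 0.19, 0.44 and 0.58, and NDUFAF2 (1687 bases), with 0.69 and 1.88 in treated libraries 1 and 3. Across the 64 genes Spearman's rho between length and log2 x-fold was -0.67, -0.52 and -0.67, and Pearson's r with log2 length was -0.68, -0.47 and -0.62. Across the 6764 goat genes, rho was -0.32, -0.35 and -0.45. These points share their libraries and the same control library, and genes are not independent replicates.

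All goat genes showed a gradient in the same direction, with median log2 x-folds of 0.79, 0.83 and 0.70 for 139 genes on unigenes of up to 600 bases. Those of over 2500 bases had -0.62, -0.97 and -0.74. The 64 genes have a median unigene length of 1054.5 bases, against 2129 bases for all goat genes that passed the minimum. Complexes with short subunits hence cannot be set against complexes with long ones without this difference: of the 13 complex IV genes, 12 lie on unigenes of under 1000 bases, whereas the 4 of complex II lie on unigenes of 1241 to 2441 bases. Members of over 1000 and up to 1500 bases had medians of -0.14, -0.04 and 0.30, beside -0.08, 0.24 and -0.03 for all goat genes of that class. In the class of over 600 and up to 1000 bases the 19 members had 0.08, -0.26 and 0.55, beside 0.37, 0.69 and 0.38. In both of these classes the members' median was above that of all goat genes in treated library 3 and below it in treated libraries 1 and 2. In the class of over 1500 and up to 2500 bases it was below in each, with all goat genes at -0.33, -0.30 and -0.34. The part of unigene length in the differences between complexes was not tested.

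**Figure D5:**
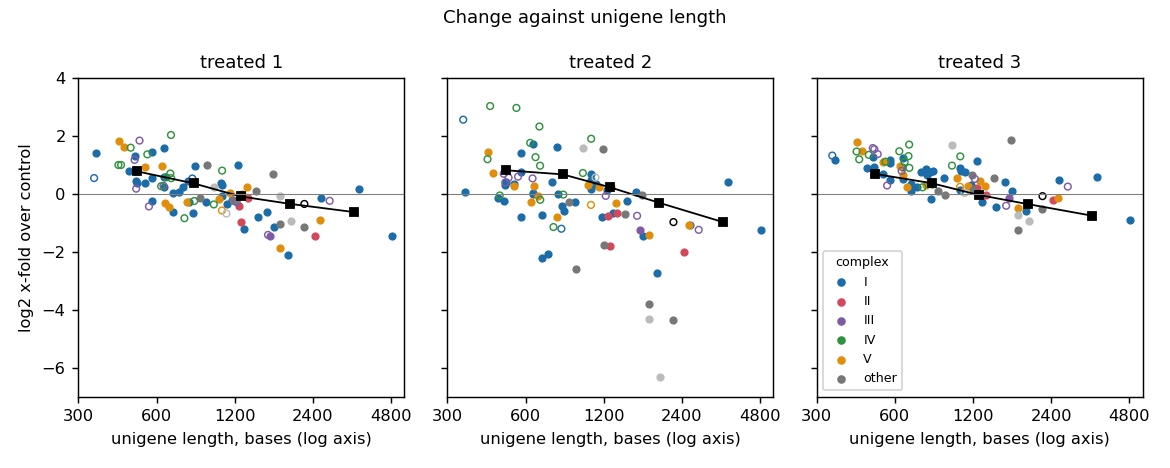
Log2 x-fold (y axis) against the length of the longest unigene of a gene (x axis, log scale) in treated libraries 1, 2 and 3, with filled points for genes found by name, open points for locus-named subunits, grey or black points for other names and cytochrome c, and black squares for the medians of all goat genes in 5 length classes. Points fall from upper left to lower right in each panel, with rho of -0.67, -0.52 and -0.67 over the 64 genes.

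The neighbouring lists give the setting. The tricarboxylic acid cycle, which feeds NADH and succinate to the chain, had all 13 listed genes in the table. In treated library 1, 7 of them were below 0.6 (32.1% of all goat genes were) and 0 above 3, with a median log2 x-fold of -0.78. In treated library 2 these were 10 (beside 40.8%) and 0, with -1.28, and in treated library 3 they were 1 (beside 32.9%) and 0, with -0.12. MDH2, malate dehydrogenase, had 1003 CPM in the control, then 293, 411 and 1062 CPM in the treated ones, and OGDH, of the oxoglutarate dehydrogenase complex, had 733 CPM and then 373, 157 and 477 CPM. The regulators of mitochondrial gene expression were low in level. Of 15 listed, 11 were in the table and 7 passed the minimum, of which 2, 5 and 3 were below 0.6 in treated libraries 1, 2 and 3 and 0 above 3, beside the same shares of all goat genes. PPARGC1A, a coactivator of mitochondrial biogenesis, did not pass the minimum. It had 46 counts in the control, then 16, 0 and 1 in the treated ones, or 7.56 CPM and then 4.01, 0 and 0.371 CPM. Its control level lies under the 22.4 CPM that 3 counts are worth in treated library 2, so the 0 there shows no fall. ESRRA, its partner receptor, had 219.5 CPM and then 129, 97.2 and 194 CPM. Of a list of 37 assembly factors and LRPPRC among them, outside the name rule, 12 were in the table and 10 passed the minimum. Of the 10, 3, 6 and 2 were below 0.6, beside 32.1%, 40.8% and 32.9% of all goat genes. LRPPRC, which stabilises mitochondrial messenger RNAs and is not an assembly factor in the strict sense, is 1 of those below 0.6 in each library. It had 104 CPM in the control, then 24.6, 7.47 and 32.6 CPM in the treated ones. PET100, a complex IV assembly factor, had 5.59 CPM and then 17.5, 74.7 and 16.3 CPM, and was the only one of the 10 above 3 in any library.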

How the data were processed

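The libraries were made by the authors from 3 µg RNA each with the NEBNext Ultra kit and sequenced on a HiSeq 2500, and FastQC 0.10.1 stands in the submitters' processing notes. The assembler and the counting tool are not given in the sources used here. The authors deposited for each unigene the expected count, their estimate of fragments, in which all values were whole, together with TPM and FPKM, which served only as alternatives. Pairings with goat genes and the percent identity of each protein match were taken from the deposited table of the authors.

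Expected counts were summed per goat gene and divided by the counts of goat-paired unigenes outside the mitochondrial genome. X-folds used a pseudocount of 1 CPM, a minimum mean of 5 CPM over the 4 libraries and the limits 3 and 0.6. Shares have 95% Wilson intervals and ratios exact Clopper-Pearson intervals. Level per length is CPM over the summed unigene length. The edgeR 4.0.16 quasi-likelihood test (TMM, Benjamini-Hochberg adjustment over all goat genes) compared the 3 treated libraries with the control library, with DESeq2 1.42.0 as an alternative. The steps were tested on simulated data. Names in the text are isoform pairs, the subunit with the highest and the lowest level per length in each complex, members past the limits in all 3 treated libraries, the 3 highest and 3 lowest x-folds in treated libraries 1 and 3 (at least 20 control counts), genes called by edgeR, and SDHA to SDHD, CYC1 and CYCS. Other genes named (NDUFS8, NDUFA3, UQCRC1, UQCRFS1, UQCRB, UQCR11, COX7C, COX5A, COX6C, COX8A, COX8B, ATP5A1, ATP5S, NDUFV2, MDH2, OGDH, PPARGC1A, ESRRA, LRPPRC, PET100, MB, MYH2, MYL1 and TNNT3) were chosen after their values were seen. The values of 1 complex I gene are not reported here on their own. Members and lists were chosen with earlier results of these data known. Calculations used Python 3.11.15, scipy 1.17.1, pandas 2.3.3 and R 4.3.3. Tables of transcripts and of FPKM classes were not used.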

Additional observations from a re-analysis of the deposited data

How the results depend on the processing

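The base of the shares mattered most. With the mitochondrial genome in the base, the mean log2 ratio over the treated libraries was -2.20 for the 64 genes, -2.85 for complex II and -2.30 for complex V, and complex I turned from 0.23 to -1.89. With all unigenes of a library as the base the values were -2.29, -2.94, -2.39 and, for complex I, -1.98. With the mitochondrial genome in the scaling, 60, 14 and 12 members lay outside the limits in library 2, library 3 and all 3 of the treated ones, against 24, 6 and 3, and the mean log2 x-fold turned negative for ATP5E (-0.73), ATP5J2 (-0.34), NDUFA13 (-1.56), NDUFA4L2 (-0.27) and NDUFS5 (-0.54). Of the 5107 goat genes that passed the minimum with that scaling, 5074, 3586 and 2311 were below 0.6 and 3, 14 and 0 above 3.

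With TMM factors none of NDUFS1, ATP5SL and NDUFAF7 was outside the limits in all 3 libraries and 1 other member (NDUFS5, above) was, and SDHD went from -0.27 to 0.019. In treated library 2 the split of members above and below the limits was 3 and 21, and 6 and 17 without the TFCP2L1 unigene (added after seeing the data). Without that unigene, 1048 of 6875 goat genes were above and 2415 below. In treated library 3, a minimum mean of 20 CPM left 3 members outside and limits of 2 and 0.5 gave 12. With that minimum, 65 of 3725 goat genes were above and 1112 below. With limits of 2 and 0.5 these were 386 and 1459 of 6764. Leaving out each treated library in turn gave mean log2 ratios of -0.27 to 0.02 for the 64 genes, 0.08 to 0.33 for complex I, -1.09 to -0.43 for complex II and -0.38 to -0.07 for complex V, and 4 to 12 members outside the limits in both others. Without treated library 1, 76 of 6864 goat genes were above and 1485 below in both others. Without treated libraries 2 and 3 in turn, 22.0% and 22.3% were past a limit. The complex V to complex I median level was 2.25 with deposited TPM, and the regulators' median moved from -0.54 to -0.27 with TMM. The cause of these shifts was not tested. With all treated libraries kept, 70 of 86 such values lay within the SD over the treated libraries or, for counts, near the reported count, among them all of those without bacterial and rabbit unigenes, with locus-named subunits added (both added after seeing the data), with pseudocounts of 0.1 and 5, with an identity of at least 80% and with single unigenes. Within the SD a sign could still turn. With the locus-named subunits added, the mean log2 ratio of the whole set was 0.13, against -0.08 for the 64 genes. The count test called 0 members under each of its 7 alternatives, in which 0 to 11 members had an unadjusted p below 0.05. Of these alternatives, DESeq2 gave an adjusted p to only 55 of the 64 genes. The 11 were found without treated library 2, where 1239 of 8559 goat genes were at that level. None was found without treated library 3, where 626 of 8534 goat genes were.

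No paired analysis was possible because the groups share only 1 replicate number. Treated library 2 limits every value that rests on it, and 1 control library leaves the spread of the controls unknown.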
